A study of Mus musculus with 6 samples.

Results

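The interferon response genes of the mouse pylorus are described here as a group of 42 genes, taken by symbol from the 38926 symbols of the deposited expression table of 6 RNA-seq libraries. Repeated symbols were reduced to their row of highest mean, but each of the 42 symbols had 1 row. Their roles were split into 11 type I targets (the Ifit, Oas and Mx families and Isg15), 12 gamma targets (the Gbp and Irgm families with their relatives Igtp and Iigp1, Cxcl9, Psmb8, Psmb9 and Tap1), 4 transcription factors, 4 RNA or DNA sensors and 11 other interferon targets. The libraries came from the pylorus, the outlet of the stomach, after its muscle layer had been taken off, so that epithelium and mesenchyme remained. Each of the 3 Sox2 KO libraries came from mice with Rosa26CreER and floxed Sox2 (Sox2 fl/fl), and each of the 3 Sox2 WT libraries from mice with Sox2 fl/fl and a wild-type Rosa26 locus; these groups are called knockouts and controls, and values are listed in the order of replicates 1 to 3. Tamoxifen, which activates the CreER recombinase, was given to the mice of both groups at 8 weeks of age, and stomachs were taken 2 weeks later. The age label of every sample says 8 weeks and the series text says 10 weeks. Rosa26 is active in most cell types, so the recombinase was not limited to the epithelium, and the controls carried the floxed alleles and had the drug but no CreER. The strain label is a mixed C57BL/6 x 129 background in both groups. Whether each library stands for its own animal is not in the labels. The p-values thus rest on the spread among these libraries, part of which may be technical. By the sex-linked genes given below, the controls did not all come from the same animal.

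Interferons are secreted proteins that cells release when they sense foreign or misplaced nucleic acid (type I and type III) or when T and NK cells are activated (gamma). Type I and type III receptors activate a complex that holds Stat2 and Irf9 and binds interferon-stimulated response elements (ISRE), whereas the gamma receptor acts through gamma-activated sites (GAS) and induces Irf1. In the gut wall the resulting target genes restrict viruses and bacteria inside cells, raise antigen presentation and are held at a low tonic level in the absence of infection.

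Promoter windows were available from RefSeq on the build GRCm38.p6 for 32 of the 42 members, from 250 bases before to 50 bases after each annotated start. An ISRE-type match, a pair of TTTC runs with any 2 bases between them on either strand, lay in a window of 18 of these 32 genes (56.2%), against 3.99% of the 27025 genes with a window. A GAS-type match, TTCNNNGAA, which reads the same on both strands, lay in a window of 9 of the 32 (28.1%), against 9.55% of all genes. Of the type I targets with a window, 5 of 8 held an ISRE-type match (Ifit1, Ifit3, Isg15, Oas1a and Oas3) and 2 held a GAS-type match (Ifit2 and Oas1a). Of the gamma targets, 6 of 10 held an ISRE-type match (Gbp2, Gbp3, Gbp7, Igtp, Irgm1 and Irgm2) and 4 a GAS-type match (Gbp7, Igtp, Irgm2 and Psmb8). A match is a description of the letters, not of binding. The 250 bases before the start are shown for Isg15 and Ifit1, type I targets that were high in 1 library, for Oasl1, a type I target with another pattern, and for the neighbouring gamma targets Igtp and Irgm2, which were high in the same libraries. They are written 5′ to 3′ on the strand of the gene, with matches to either motif in capitals.
Isg15 promoter, chr4:156200819-156201068, minus strand: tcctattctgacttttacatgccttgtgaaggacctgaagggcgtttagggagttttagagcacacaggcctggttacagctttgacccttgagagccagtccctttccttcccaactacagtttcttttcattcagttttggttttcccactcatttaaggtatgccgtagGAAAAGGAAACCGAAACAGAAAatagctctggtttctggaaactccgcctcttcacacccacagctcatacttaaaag
Ifit1 promoter, chr19:34640639-34640888, plus strand: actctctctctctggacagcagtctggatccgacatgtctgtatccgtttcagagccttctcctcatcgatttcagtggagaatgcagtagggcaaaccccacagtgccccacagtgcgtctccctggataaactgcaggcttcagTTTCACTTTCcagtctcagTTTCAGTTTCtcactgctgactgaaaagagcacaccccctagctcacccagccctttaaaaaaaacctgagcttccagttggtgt
Oasl1 promoter, chr5:114922990-114923239, plus strand: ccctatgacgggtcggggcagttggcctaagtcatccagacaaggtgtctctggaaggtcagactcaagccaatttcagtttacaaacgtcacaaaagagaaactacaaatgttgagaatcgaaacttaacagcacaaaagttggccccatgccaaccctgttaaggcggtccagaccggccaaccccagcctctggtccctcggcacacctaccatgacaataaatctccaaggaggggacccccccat
Igtp promoter, chr11:58199306-58199555, plus strand: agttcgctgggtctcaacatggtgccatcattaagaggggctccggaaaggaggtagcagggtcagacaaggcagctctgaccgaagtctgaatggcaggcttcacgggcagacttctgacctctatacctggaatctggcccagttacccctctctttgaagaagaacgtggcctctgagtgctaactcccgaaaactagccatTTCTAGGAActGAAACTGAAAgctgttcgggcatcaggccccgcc
Irgm2 promoter, chr11:58214727-58214976, plus strand: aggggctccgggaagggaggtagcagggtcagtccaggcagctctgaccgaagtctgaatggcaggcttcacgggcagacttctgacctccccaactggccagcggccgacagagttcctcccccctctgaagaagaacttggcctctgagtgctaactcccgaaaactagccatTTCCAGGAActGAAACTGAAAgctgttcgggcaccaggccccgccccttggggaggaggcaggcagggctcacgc
Isg15 held 3 ISRE-type matches that overlap one another in 1 run, Ifit1 held 2 separate ones, and the Oasl1 window held no match to either motif. In Igtp and in Irgm2 a GAS-type match stands just before an ISRE-type match, with 2 bases between, and the longest run of identical bases in the shown stretches of the 2 genes was 55 bases.

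The libraries matched their genotype labels, but sex differed along with genotype. In RPKM, the reads per kilobase of gene scaled to the depth of the library, the controls had Sox2 at 11.1, 9.03 and 10.9, and the knockouts had 0.342, 0.210 and 0.420. That is a log2 fold change of -3.72 (SE 0.147, adjusted p = 0.000293 in limma), and the exact permutation p, two-sided, was 0.1, the smallest that 3 against 3 allow. Xist reached 36.3 and 33.3 RPKM in Sox2 WT replicates 2 and 3 with at most 0.0124 RPKM elsewhere. With the Y-linked genes this marks these 2 libraries as female, and the other 4, namely Sox2 WT replicate 1 and the knockouts, as male. Between 20180 and 20550 genes were above 0 per library, with 27494901 to 40410198 reads in genes as recovered from the RPKM. Among genes tested, 14045 in all, 2 were called higher (0.0142%) and 2 lower (0.0142%) in the knockouts at an adjusted p of 0.05.

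Interferon targets were somewhat higher in Sox2 KO on average, but no member passed the test, and the highest levels of most members lay in 1 library, Sox2 KO replicate 2. Of the 42 members, 36 had a mean of at least 0.5 RPKM and were tested. On the log2(RPKM + 0.5) scale, on which changes of low genes look smaller than they are, 35 of the 36 had a positive fold change and Psmb9 a negative one, where 56.8% of all genes tested were positive. The median over the members was 0.35, against 0.02 over all genes, with 0.41 for the 9 tested type I targets, 0.21 for the 10 gamma targets, 0.38 for the 4 transcription factors, 0.15 for the 3 sensors and 0.33 for the 10 other targets. In tissue RNA, fewer cells of a type and less RNA per cell cannot be told apart.

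Limma called 0 of the 36 members after Benjamini-Hochberg adjustment over all genes, with adjusted p between 0.999 and 1, where 0.0285% of all genes were called. An unadjusted p under 0.05 was reached by 7 members (19.4%), namely Gbp3, Igtp, Irgm2, Irf9, Rsad2, Ifi44 and Rtp4, all higher in Sox2 KO, where 3.15% of all genes reached it and 2.11% did so on the higher side. Ifi44 passed the filter on low values only through the knockouts, with a mean of 0.355 RPKM in the controls, so its place in this and the next count draws on the filter. A fit of the recovered reads with limma's voom also called 0 members and gave 7 with an unadjusted p under 0.05. The 3 Sox2 KO libraries all lay above the 3 Sox2 WT libraries in 7 members, Gbp3, Irgm2, Irf9, Dhx58, Usp18, Ifi44 and Rtp4, against 4.09% of all genes. In 0 members did they all lie below, against 2.99% of all genes. None of the 9 tested type I targets was among these 7. Beside a share of 4.09% of all genes, 0 of 9 does not set the type I targets apart.

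These counts depended on which libraries were kept. Without Sox2 KO replicate 2, 0 members reached an unadjusted p under 0.05 in limma (2.1% of all genes), 33 were positive and the median was 0.21. The 2 remaining Sox2 KO libraries then lay above the 3 Sox2 WT libraries in 7 members, where 6.04% of all genes did so. Without Sox2 KO replicate 3, 15 members reached an unadjusted p under 0.05 (4.32% of all genes) and 17 lay above (8.81% of all genes). The number that lay above was 14 without Sox2 KO replicate 1 (9.69% of all genes) and 15 without Sox2 WT replicate 1 (6.28%). It was 9 without Sox2 WT replicate 2 (12.9%) and 8 without Sox2 WT replicate 3 (10.6%). The number with an unadjusted p under 0.05 in limma was 3 without Sox2 WT replicate 2 (5.49% of all genes), which is near the background. It was 4 without Sox2 WT replicate 3 (3.9%), 8 without Sox2 KO replicate 1 (3.6%) and 7 without Sox2 WT replicate 1 (2.34%). With sex as a covariate, which sets the Sox2 KO libraries against the 1 male Sox2 WT library, 31 members were positive (58.8% of all genes), 0 reached an unadjusted p under 0.05 (3.58% of all genes) and the median was 0.28, with 0.30 for the type I targets and 0.12 for the gamma targets.

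**Figure D1:**
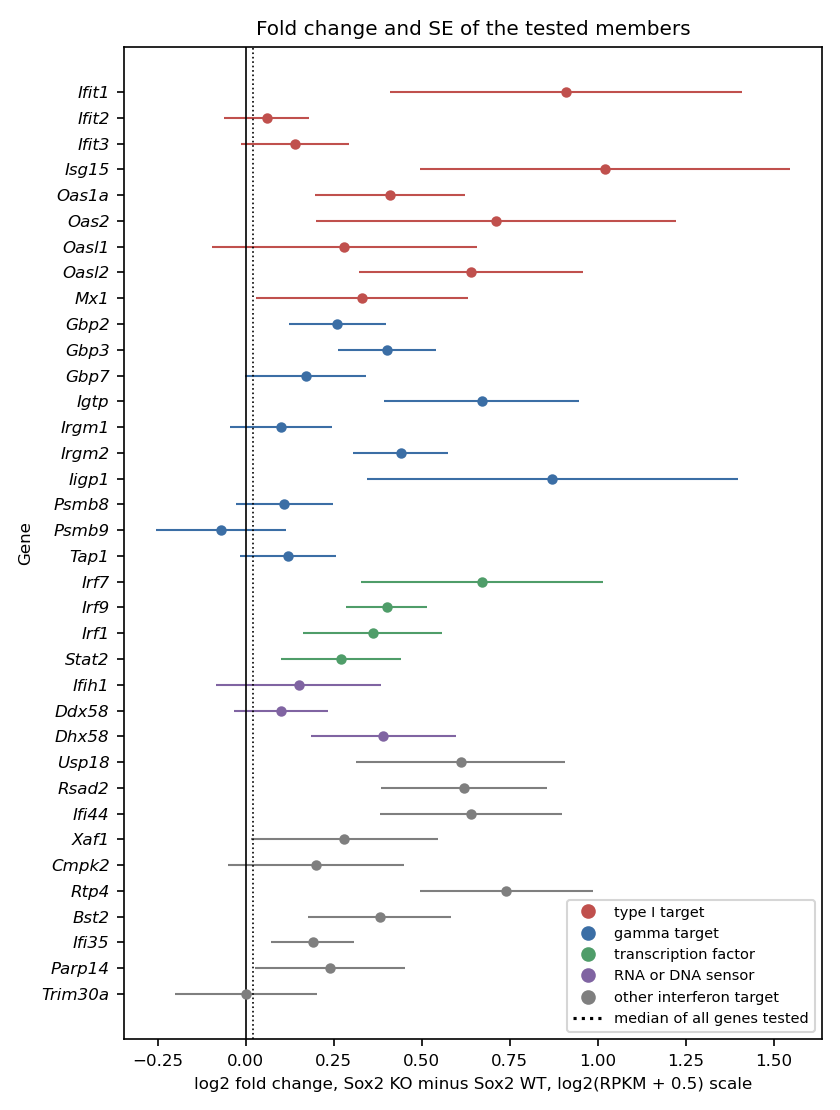
Log2 fold change (knockouts minus controls, log2(RPKM + 0.5) scale) of the 36 tested members (points) with the standard error of the limma fit (bars), coloured by role, n = 3 libraries a group. Points run from -0.07 in Psmb9 to 1.02 in Isg15, and the members with the largest values have the widest bars; the dotted line is the median of all genes tested, 0.02.

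Type I targets ranged from a level that varied several-fold between libraries to a nearly flat one. Isg15 (ENSMUSG00000035692, chr4:156199424-156200818, minus strand) encodes a ubiquitin-like protein that is joined to other proteins during the interferon response. The controls had 4.34, 2.08 and 1.51 RPKM, from 79, 44 and 29 reads, and the knockouts 2.98, 12.8 and 4.07 RPKM, from 67, 280 and 104 reads. The level in Sox2 KO replicate 2 was 2.94 times that of the next library, which was Sox2 WT replicate 1, and the other Sox2 KO libraries lay within the Sox2 WT range. The means were 2.64 ± 1.50 RPKM in the controls and 6.61 ± 5.37 RPKM in the knockouts (n = 3 libraries a group, SD), a log2 fold change of 1.02 (SE 0.526) that was 0.45 without Sox2 KO replicate 2.

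The 3 Ifit genes lie side by side on chromosome 19 and encode proteins that bind viral RNA, yet their levels did not vary alike. Ifit1 (chr19:34640871-34650009, plus strand) was at 1.76, 0.565 and 0.458 RPKM in the controls and 1.21, 4.68 and 1.23 RPKM in the knockouts, from 113, 42, 31, 96, 361 and 111 reads. As with Isg15, Sox2 KO replicate 2 was highest, at 2.65 times the next library, and Sox2 WT replicate 1 lay above the other Sox2 KO libraries. Its log2 fold change was 0.91 (SE 0.499), and 0.38 without Sox2 KO replicate 2. Ifit2 (chr19:34550694-34576419) was at 1.22, 1.42 and 1.37 RPKM in the controls and 1.36, 1.52 and 1.36 RPKM in the knockouts, so that its highest library was 1.24 times its lowest, where that ratio was 10.2 in Ifit1. Ifit3 (chr19:34583531-34588731) was at 1.45, 1.45 and 1.15 RPKM in the controls and 1.29, 1.86 and 1.49 RPKM in the knockouts. In both genes Sox2 KO replicate 2 was highest, at 1.07 and 1.25 times the next library. Reads of Ifit3 and of its near-identical copy listed as I830012O16Rik may have been split between the copies.

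Oas enzymes make oligoadenylates, an antiviral messenger, and Oas1a, Oas2 and Oas3 lie in 1 cluster on chromosome 5. Oas2 (chr5:120730333-120749853, minus strand) was at 0.943, 0.665 and 0.272 RPKM in the controls and 0.963, 3.55 and 0.457 RPKM in the knockouts. In Sox2 KO replicate 2 it was 3.69 times the next library, and the groups otherwise overlapped. Oas3, under the filter at a mean of 0.341 RPKM, was highest in the same library, at 1.04 RPKM, 2.39 times the next. Oas1a (chr5:120896256-120907521) was at 8.14, 6.78 and 9.31 RPKM in the controls and 11.5, 13.9 and 7.88 RPKM in the knockouts, highest in Sox2 KO replicate 2 at 1.21 times the next library. The highest library was thus 13.1 times the lowest in Oas2, 15.9 times in Oas3 and 2.05 times in Oas1a. Oas1a has close paralogs in the same cluster, among which reads may have been shared.

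Oasl1 was the most abundant member, and it did not share the pattern of Isg15. Mouse Oasl1 is related to the Oas enzymes and is known to hold back translation of Irf7. It was at 57.0, 44.7 and 114 RPKM in the controls and 107, 89.0 and 55.3 RPKM in the knockouts, with Sox2 WT replicate 3 highest and Sox2 KO replicate 1 next. Where Oasl1 and Gm13822 overlap on opposite strands, their reads cannot be told apart without strand information. Its neighbour Oasl2 was at 2.27, 1.27 and 1.57 RPKM in the controls and 2.70, 4.79 and 1.75 RPKM in the knockouts, highest in Sox2 KO replicate 2 at 1.77 times the next library. Mx1, a dynamin-like GTPase that blocks viruses and is defective in most laboratory strains, was at 1.87, 1.23 and 3.03 RPKM in the controls and 3.16, 3.08 and 1.72 RPKM in the knockouts. Like Oasl1, Mx1 was high in Sox2 WT replicate 3 and Sox2 KO replicates 1 and 2 and low in the other 3 libraries. Mx2, annotated as a polymorphic pseudogene in GENCODE M21, stayed under the filter at a mean of 0.471 RPKM and reached 1.13 RPKM in Sox2 KO replicate 2, 2.43 times the next library.

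**Figure D2:**
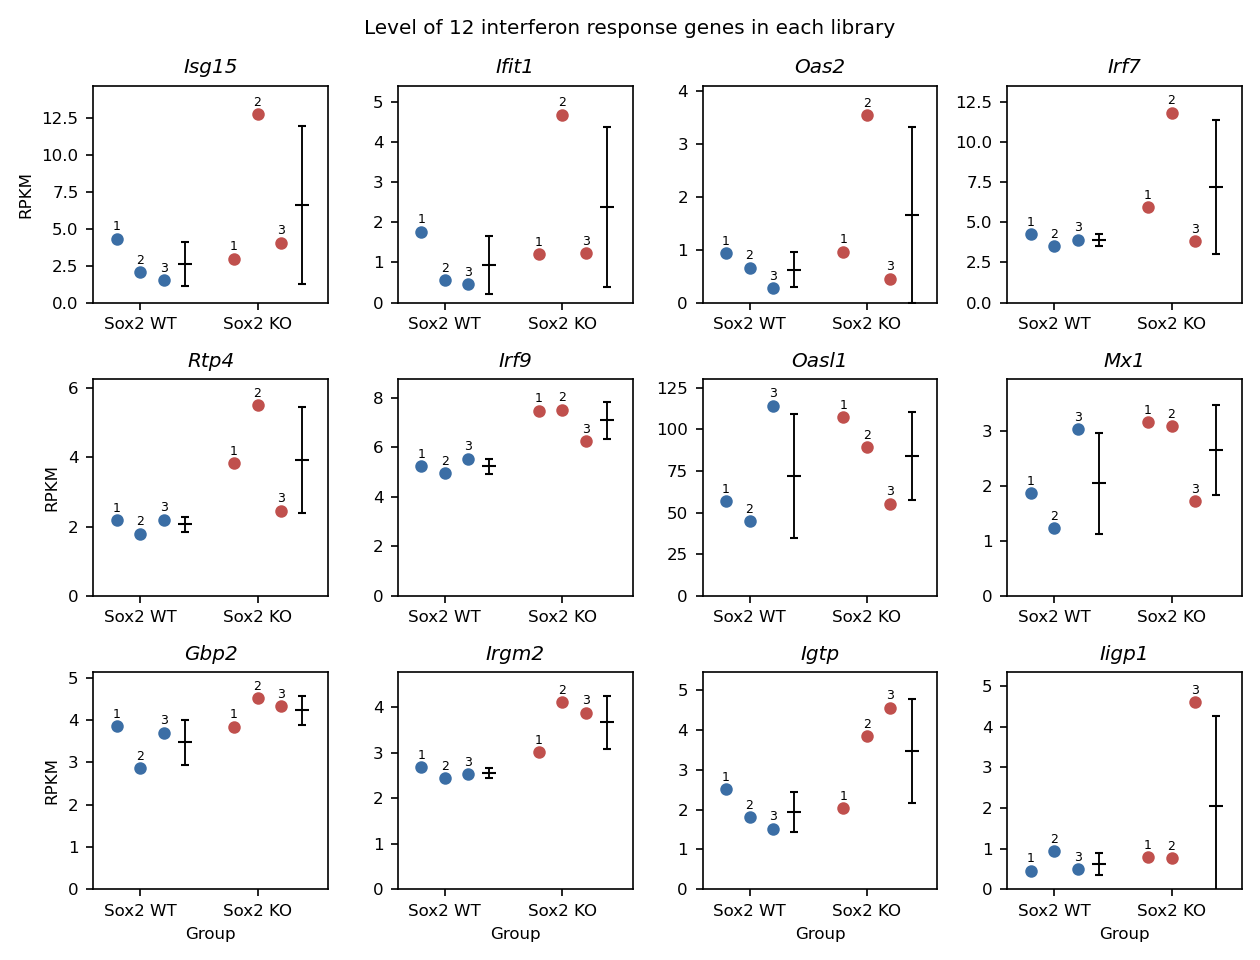
RPKM of 12 interferon response genes in each library, as points numbered by replicate (blue Sox2 WT, red Sox2 KO), with the group mean and SD beside them (n = 3 each; bars that would pass below 0 end at the axis). Isg15, Ifit1, Oas2 and Irf7 are highest in Sox2 KO replicate 2, at 12.8, 4.68, 3.55 and 11.8 RPKM, while Iigp1 is highest in Sox2 KO replicate 3, at 4.61 RPKM, and Oasl1 in Sox2 WT replicate 3, at 114 RPKM.

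In 8 of the 10 tested gamma targets the highest library was under 2 times the lowest, and the exceptions were Igtp, at 3.01 times, and Iigp1, at 10.2 times. The guanylate-binding protein genes Gbp2, Gbp3 and Gbp7, whose GTPases attack vacuoles that hold pathogens, lie in a cluster on chromosome 3. Gbp2 was at 3.85, 2.86 and 3.70 RPKM in the controls and 3.85, 4.52 and 4.33 RPKM in the knockouts. Gbp3 was at 1.81, 1.63 and 2.10 RPKM in the controls and 2.30, 2.98 and 2.50 RPKM in the knockouts, so that its groups did not overlap, at a log2 fold change of 0.40 (SE 0.139, unadjusted p = 0.023 in limma, which does not pass). Gbp7 was at 2.23, 1.90 and 1.30 RPKM in the controls and 2.22, 1.93 and 2.03 RPKM in the knockouts, the only tested member that was highest in Sox2 WT replicate 1. Gbp6, whose exons overlap those of Gbp10, was at most 0.193 RPKM and was not tested.

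The immunity-related GTPase genes encode regulators (Irgm1, Irgm2 and Igtp) and an effector (Iigp1) that act on vacuoles of intracellular pathogens. Irgm2 was at 2.68, 2.45 and 2.54 RPKM in the controls and 3.02, 4.11 and 3.88 RPKM in the knockouts, each Sox2 KO library above each Sox2 WT library (log2 fold change 0.44, SE 0.135, unadjusted p = 0.0132 in limma). Igtp was at 2.51, 1.80 and 1.52 RPKM in the controls and 2.03, 3.85 and 4.57 RPKM in the knockouts, with Sox2 KO replicates 2 and 3 high and Sox2 KO replicate 1 within the Sox2 WT range. Igtp (chr11:58199556-58207591) and Irgm2 (chr11:58199618-58222782) overlap on the same strand, so reads of their shared exon bases may have counted for either gene. Irgm1, on another stretch of chromosome 11, was at 2.28, 2.29 and 1.96 RPKM in the controls and 1.91, 2.71 and 2.51 RPKM in the knockouts, and its groups overlapped.

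Iigp1 stood apart in Sox2 KO replicate 3. It was at 0.452, 0.938 and 0.490 RPKM in the controls and 0.786, 0.761 and 4.61 RPKM in the knockouts, from 68, 164, 78, 146, 138 and 976 reads, which may be too high by a common divisor of 2. Sox2 KO replicate 3 was 4.92 times the next library, Sox2 WT replicate 2, and the other 5 libraries overlapped. The log2 fold change of 0.87 (SE 0.527) was 0.20 without that library. Of the 13973 genes with a mean of at least 0.5 RPKM in the other 5 libraries, 0.115% were at least 2 times each of them in Sox2 KO replicate 3.

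Immunoproteasome and peptide transport genes were nearly level. Psmb8, a catalytic subunit of the immunoproteasome, was at 2.97, 2.80 and 3.33 RPKM in the controls and 2.79, 3.42 and 3.77 RPKM in the knockouts. Psmb9, another such subunit, was at 2.57, 1.98 and 2.12 RPKM in the controls and 1.56, 2.71 and 2.09 RPKM in the knockouts. Tap1, which carries peptides to MHC class I, was at 3.27, 2.95 and 3.23 RPKM in the controls and 3.00, 4.14 and 3.32 RPKM in the knockouts. All 3 genes had groups that overlapped, at log2 fold changes of 0.11, -0.07 and 0.12, and Psmb9 (chr17:34181987-34187764) and Tap1 (chr17:34187553-34197225) share only a short stretch at their starts, on opposite strands, in which reads cannot be told apart without strand information. Cxcl9, a chemokine that attracts T cells and a defining gamma target, stayed at 2 to 13 reads and at most 0.150 RPKM in each library and was not tested.

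Transcription factors of the pathway were higher in Sox2 KO replicates 1 and 2 than in the other libraries. Irf7, the factor that amplifies type I interferon production, was at 4.26, 3.50 and 3.93 RPKM in the controls and 5.96, 11.8 and 3.81 RPKM in the knockouts. Its peak, in Sox2 KO replicate 2, was 1.98 times the next library, and Sox2 KO replicate 3 lay within the Sox2 WT range. The log2 fold change of 0.67 (SE 0.344) became 0.27 without Sox2 KO replicate 2. Exons of Irf7 overlap those of Phrf1 on the opposite strand, where reads cannot be told apart without strand information. Irf9, the DNA-binding part of the type I complex, was at 5.23, 4.95 and 5.55 RPKM in the controls and 7.49, 7.54 and 6.25 RPKM in the knockouts. Its groups did not overlap, and its log2 fold change of 0.40 (SE 0.115, unadjusted p = 0.0096 in limma, adjusted p = 0.999) stayed between 0.36 and 0.48 over all alternatives, although its exons overlap those of Rnf31 on the same strand. Irf1, the factor induced by gamma interferon, was at 8.54, 6.04 and 9.10 RPKM in the controls and 12.2, 10.4 and 8.11 RPKM in the knockouts, and Stat2, a part of the type I complex, was at 8.19, 5.99 and 8.05 RPKM in the controls and 10.0, 9.80 and 7.32 RPKM in the knockouts. Both were highest in Sox2 KO replicate 1, lowest in Sox2 WT replicate 2 and within the Sox2 WT range in Sox2 KO replicate 3.

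Each of the 3 tested sensors was highest in Sox2 KO replicate 2. Dhx58, a helicase that regulates RNA sensing, was at 1.12, 0.958 and 1.03 RPKM in the controls and 1.34, 2.25 and 1.13 RPKM in the knockouts, with the lowest Sox2 KO library just above the highest Sox2 WT library. Ifih1, a helicase that detects long viral RNA, was at 3.13, 2.65 and 3.88 RPKM in the controls and 4.24, 4.49 and 2.37 RPKM in the knockouts, and Sox2 KO replicate 3 was its lowest library. Ddx58, the helicase that detects RNA ends made by viruses, was at 2.22, 1.97 and 1.94 RPKM in the controls and 2.16, 2.59 and 1.94 RPKM in the knockouts. The 3 genes had log2 fold changes of 0.39, 0.15 and 0.10. Zbp1, a sensor of nucleic acid in the left-handed form, was under the filter and ran from 0.199 to 0.691 RPKM, the latter in Sox2 KO replicate 2.

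Of the other interferon targets, 8 of the 10 tested were highest in Sox2 KO replicate 2. Rtp4, a chaperone of cell-surface receptors, was at 2.19, 1.79 and 2.20 RPKM in the controls and 3.82, 5.50 and 2.46 RPKM in the knockouts. Its groups did not overlap (log2 fold change 0.74, SE 0.246, unadjusted p = 0.0194 in limma). Without Sox2 KO replicate 3 it had the lowest adjusted p of any member under any alternative, 0.356 in limma. Exons of Rtp4 overlap those of Gm45338 on the same strand, so reads there may have counted for either gene. Usp18, which removes Isg15 from proteins and dampens the type I receptor, was at 2.14, 1.95 and 1.03 RPKM in the controls and 2.16, 4.34 and 2.25 RPKM in the knockouts. Here Sox2 KO replicates 1 and 3 lay barely above Sox2 WT replicate 1, and Sox2 KO replicate 2 was 1.93 times the next library. Bst2, a membrane protein that tethers budding viruses, was at 8.84, 8.23 and 8.16 RPKM in the controls and 7.96, 14.6 and 11.7 RPKM in the knockouts, with Sox2 KO replicate 1 the lowest of all libraries.

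Ifi35 was the most abundant of the other targets, at 11.6, 12.1 and 13.6 RPKM in the controls and 13.4, 16.03 and 13.3 RPKM in the knockouts. Cmpk2, a mitochondrial nucleotide kinase, was at 2.26, 1.39 and 1.25 RPKM in the controls and 1.45, 2.77 and 1.67 RPKM in the knockouts, with Sox2 WT replicate 1 next below Sox2 KO replicate 2. Groups overlapped in both genes. Parp14, an ADP-ribosyltransferase, was at 2.60, 1.89 and 2.37 RPKM in the controls and 3.46, 3.17 and 1.89 RPKM in the knockouts, with Sox2 KO replicate 3 and Sox2 WT replicate 2 lowest. Xaf1, which promotes cell death, was at 0.652, 1.56 and 0.782 RPKM in the controls and 0.916, 1.20 and 1.75 RPKM in the knockouts, and was highest in Sox2 KO replicate 3. The 3 members of lower mean, Rsad2 (a radical enzyme that blocks virus growth), Ifi44 and Trim30a, had means of 0.944, 0.596 and 0.683 RPKM and were highest in Sox2 KO replicate 2, at 1.44, 1.28 and 0.996 RPKM. Rsad2 and Ifi44 had log2 fold changes of 0.62 and 0.64, and Trim30a one of 0.00. Cxcl10, a chemokine that attracts T cells, was at most 0.383 RPKM, in Sox2 WT replicate 1, and was not tested.

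**Figure D3:**
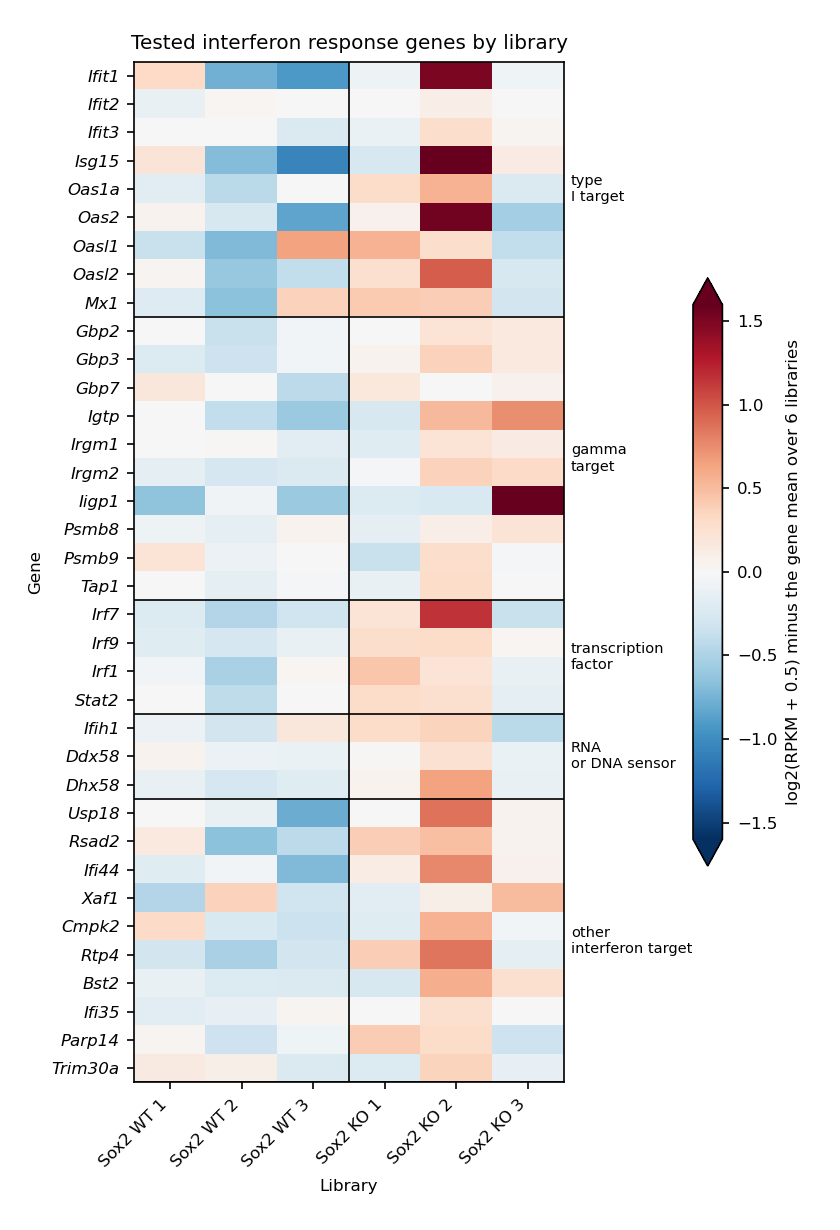
Deviation of log2(RPKM + 0.5) from the mean of the 6 libraries for the 36 tested members (rows, grouped by role) in each library (columns), with red above and blue below the mean and values beyond the ends of the scale shown in its end colours. The column of Sox2 KO replicate 2 is red in 35 of the 36 rows, and that of Sox2 WT replicate 2 in 5.

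Set side by side, the libraries differed from each other within both genotypes. The highest level of 26 of the 36 tested members (72.2%) lay in Sox2 KO replicate 2, although that library held the highest level of 7.13% of all genes tested, the lowest share of any library. By role this was 7 of 9 type I targets, 6 of 10 gamma targets, 2 of 4 transcription factors, 3 of 3 sensors and 8 of 10 other targets. Sox2 KO replicate 1 was highest in 4 members (19.1% of all genes), Sox2 KO replicate 3 in 4 (Igtp, Iigp1, Psmb8 and Xaf1, against 27.5% of all genes), Sox2 WT replicate 1 in 1 (Gbp7, 12.7% of all genes), Sox2 WT replicate 3 in 1 (Oasl1, 16% of all genes) and Sox2 WT replicate 2 in 0 (17.6% of all genes). With the filter set on the mean of the other 5 libraries, so that a gene cannot pass through Sox2 KO replicate 2 itself, Ifi44 drops out and that library was highest in 25 of 35 members (6.79% of all genes). It was at least 2 times each other library in 3 of the 35, Isg15, Ifit1 and Oas2, where 0.107% of all genes were.

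**Figure D4:**
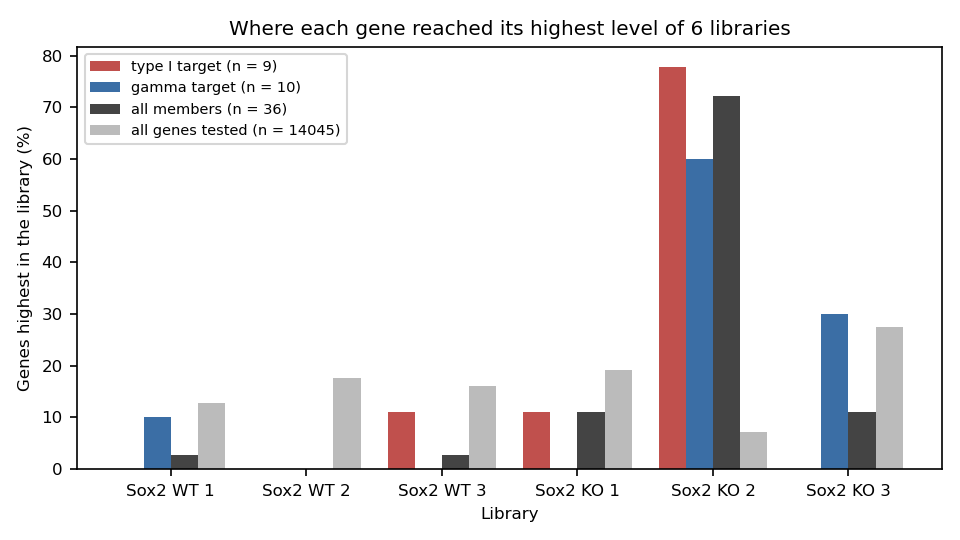
Percent of genes whose highest level of the 6 libraries fell in each library, for the 9 tested type I targets, the 10 gamma targets, all 36 tested members and all 14045 genes tested. Sox2 KO replicate 2 holds 72.2% of the members and 7.13% of all genes.

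Type I and gamma targets had medians of opposite sign in Sox2 KO replicates 1 and 3 and, by a very small margin, in Sox2 WT replicate 1. On the log2 scale, the median deviation of the type I targets from the mean of the 6 libraries was 0.01, -0.61 and -0.23 in the controls and 0.07, 0.55 and -0.23 in the knockouts. That of the gamma targets was -0.01, -0.15 and -0.11 in the controls and -0.14, 0.25 and 0.16 in the knockouts. Sox2 KO replicate 2 was thus high for both kinds, with 9 of 9 type I and 9 of 10 gamma targets above their mean. In Sox2 KO replicate 3, 2 of 9 type I and 9 of 10 gamma targets were above it, and in Sox2 KO replicate 1, 5 of 9 and 3 of 10. Without Oasl1, the type I median in Sox2 KO replicate 1 was 0.03, with 4 of 8 genes above their mean. All genes tested had medians between -0.03 and 0.01 in every library. The mean of Sox2 KO replicates 1 and 3 exceeded the Sox2 WT mean by a median of 0.22 in the type I and 0.21 in the gamma targets, against 0.03 in all genes. In turn, Sox2 KO replicate 2 exceeded the mean of the other Sox2 KO libraries by a median of 0.52 and 0.24 in the same order, against -0.02 in all genes. The difference between the kinds of target was not tested.

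**Figure D5:**
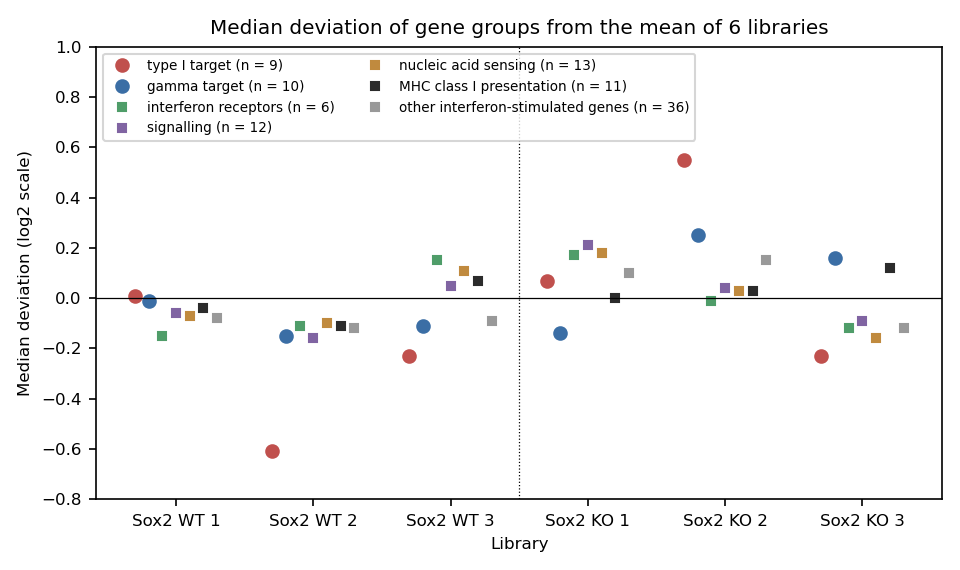
Median deviation of log2(RPKM + 0.5) from the mean of the 6 libraries for the tested type I and gamma targets (circles) and for 5 groups of other pathway genes (squares), by library, with the number of genes in the legend. Type I targets are lowest in Sox2 WT replicate 2, at -0.61, and highest in Sox2 KO replicate 2, at 0.55, a wider span than any other group shows.

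Limma called no gene in the rest of the pathway, where positive fold changes outnumbered negative ones. A list of 115 ligands, receptors, signalling proteins, nucleic acid sensors, presentation genes and further interferon-stimulated genes had 114 genes in the table and 78 tested. Of the 78, 0 had an adjusted p under 0.05 and 7 had an unadjusted p under 0.05 (8.97%, against 3.15% of all genes). Fold changes were positive in 59 and negative in 19, where 56.8% of all genes were positive. The median of the 78 was 0.09 on the log2 scale, against 0.02 over all genes. The 3 Sox2 KO libraries all lay above the 3 Sox2 WT libraries in 8 of the 78 (4.09% of all genes) and below them in 0 (2.99%). Of 18 ligand genes found, 15 were listed at 0 in every library, among them Ifnb1 and Ifng, the type I and gamma ligands most often measured. The others were Ifne, the epithelial type I interferon, with at most 0.828 RPKM in Sox2 WT replicate 3, Ifnk with 0.133 RPKM in Sox2 WT replicate 2 alone and Ifnl2 with 0.0846 RPKM in Sox2 KO replicate 3 alone.

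Receptors were well measured and level, with 6 tested and a median log2 fold change of 0.06. The gamma receptor genes Ifngr1 and Ifngr2 were at 60.9 ± 9.30 and 29.5 ± 4.09 RPKM in the controls and 66.6 ± 8.76 and 31.2 ± 4.68 RPKM in the knockouts (n = 3 libraries a group, SD). The type I receptor genes Ifnar1 and Ifnar2 were at 7.51 ± 0.877 and 2.55 ± 0.106 RPKM in the controls and 7.42 ± 0.603 and 2.67 ± 0.295 RPKM in the knockouts. For the type III receptor, Ifnlr1 was at 5.36 ± 2.12 and 5.35 ± 2.64 RPKM and Il10rb at 15.7 ± 1.74 and 16.6 ± 0.548 RPKM in the same order. Each of these differences was smaller than the larger SD of the groups it compares. On the per-length RPKM scale the order was Ifngr1, Ifngr2, Il10rb, Ifnar1, Ifnlr1 and Ifnar2, and over the libraries Ifnlr1 overlapped both of its neighbours in that order.

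Signalling genes had a median log2 fold change of 0.07 over 12 tested. The 3 most abundant, Socs3, Irf2 and Jak2, had log2 fold changes of 0.00, 0.03 and 0.00. Socs1, an inhibitor of Jak kinases and itself a gamma target, had 0.51 with groups that did not overlap. With a mean of 0.458 RPKM in the controls, Socs1 passed the filter on low values only through the knockouts. Its place in the counts over the whole pathway list therefore draws on the filter. Sensing genes had a median of 0.08 over 13 tested, with 0.05 for Trim25 and 0.08 for Mavs. Presentation genes had a median of 0.05 over 11 tested, with -0.04 for Calr, 0.06 for Pdia3 and 0.14 for H2-K1, and Psme2, a proteasome activator, reached 0.35 with groups that did not overlap. Of the 36 further interferon-stimulated genes tested, 27 were positive, where 56.8% of all genes were. An unadjusted p under 0.05 in limma was reached by 5 (13.9%, against 3.15% of all genes). Groups did not overlap in 6, each higher in Sox2 KO, against 4.09% of all genes. The median of the 36 was 0.17, with 0.15 for Lgals9, 0.01 for Lgals3bp and -0.15 for Ifitm2. Socs1 and Psme2 and the genes of the next paragraph were picked after their values were seen.

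Of the further interferon-stimulated genes, Sox2 KO replicate 2 was highest in 11 of 36 (30.6%, against 7.13% of all genes). Sox2 KO replicate 3 was highest in 8 (22.2%), which is below its share of all genes, 27.5%. Gbp4, another guanylate-binding protein gene, was at 2.01 RPKM in Sox2 KO replicate 3 and at most 0.737 RPKM in each other library. Gbp5 and Ifi47, both gamma targets, were also highest there, at 1.48 and 1.58 RPKM. Oas1g, a paralog of Oas1a, was highest in Sox2 KO replicate 2 at 4.03 RPKM, and its groups did not overlap (log2 fold change 0.62, SE 0.184, unadjusted p = 0.0107 in limma).

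Other genes that were high in Sox2 KO replicate 2 were few, as in every library. Of all 14045 genes tested, 16, 34 and 26 were at least 2 times each other library in the controls. In the knockouts these counts were 17, 27 and 25. Of 12519 genes with a mean of at least 1 RPKM, 13 were at least 2 times each other library in Sox2 KO replicate 2. Among these, 3 were members (Isg15, Ifit1 and Oas2). Of the 13, Oas2, Chi3l3 and the immunoglobulin segments Igkv4-58 and Ighv8-11 reached that mean only through the library itself. Over the 12510 genes with a mean of at least 1 RPKM in the other 5 libraries, the count was 9. Isg15 and Ifit1 were the members among them. The other 10 of the 13 included 6 immunoglobulin variable segments. They also held the chitinase-like genes Chi3l3 (12.8 RPKM, at most 1.35 RPKM elsewhere) and Chi3l4 (1357 RPKM, at most 466 RPKM elsewhere). The rest were Retnla (27.6 RPKM, at most 10.5 RPKM elsewhere) and the mast cell protease gene Mcpt1 (8.58 RPKM, at most 3.49 RPKM elsewhere). Chi3l3, Chi3l4 and Retnla are known as genes of type 2 immune responses. By the same measure 13 genes were high in Sox2 KO replicate 3, with Iigp1 as the 1 member among them, a count made after its values were seen. Iigp1 too reached the mean only through that library, and with the minimum set on the other 5 libraries the count was 8, with 0 members.

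Markers of other cell types also varied between the libraries, and 4 of 6 tuft cell markers were, like most members, highest in Sox2 KO replicate 2. Tuft cells are chemosensory epithelial cells that take part in type 2 immune responses. Of 5 tested markers, the median log2 fold change was 0.93, with median deviations of -0.57, -0.49 and -0.35 in the controls and 0.44, 0.80 and 0.29 in the knockouts. Trpm5, a cation channel of taste signalling, was at 1.23, 1.59 and 1.67 RPKM in the controls and 3.49, 4.61 and 3.02 RPKM in the knockouts, and Sh2d6 was at 2.37, 3.69 and 3.94 RPKM in the controls and 8.75, 13.0 and 8.51 RPKM in the knockouts. In these genes, in Dclk1 and in Pou2f3, the factor that specifies tuft cells, the groups did not overlap. Sox2 KO replicate 2 was highest in each, and the group differences had adjusted p of 0.184 to 0.580 in limma. Of all genes tested, 4.09% had the 3 Sox2 KO libraries above the 3 Sox2 WT libraries. Gfi1b and Avil had groups that overlapped, and the sum of all 6 markers, most of it Avil, was 101 to 183 RPKM in the controls and 145 to 187.5 RPKM in the knockouts. The part of tuft cells in the levels of interferon targets was not tested.

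Immune and blood cell markers gave a mixed account of the same libraries. Summed RPKM of 13 T and NK cell markers was 1.53 to 1.86 in the controls and 1.61 to 1.87 in the knockouts, and that of 10 myeloid markers 90.1 to 162 and 90.7 to 149, with Sox2 WT replicate 3 highest. The 6 markers of plasmacytoid dendritic cells, which make type I interferon, summed to 9.37 to 11.8 in the controls and 8.56 to 11.3 in the knockouts. Most of this sum was Tcf4 and Irf8. Siglech, Ccr9, Tlr7 and Tlr9 were under the filter, each with at most 0.532 RPKM in any library. Sox2 KO replicate 2 was the lowest library for Siglech, at 0.268 RPKM, and the highest for Ccr9, at 0.0737 RPKM. Of the 6 libraries, Sox2 KO replicate 2 was highest for the 6 B and plasma cell markers, at 37.8 against 17.5 to 33.8 RPKM in the other libraries, and for the 5 red blood cell markers, at 12.2 against 3.57 to 7.67 RPKM. The sum of the red blood cell markers was higher in each Sox2 KO library than in each Sox2 WT library. So were Hbb-bs, Hbb-bt and Alas2, whereas Hba-a1 and Hba-a2 had groups that overlapped. Among all genes tested, 4.09% had the 3 Sox2 KO libraries above the 3 Sox2 WT libraries. Hbb-bt, with a mean of 0.429 RPKM in the controls, passed the filter on low values only through the knockouts. Alas2, at a mean of 0.139 RPKM, was under the filter and not tested. No marker of these lists was at 0 in all libraries. The part of B cells, plasma cells and blood in the high interferon targets of Sox2 KO replicate 2 was not tested. The 2 parietal cell markers, Atp4a and Atp4b, varied within the controls, with sums of 737, 2616.5 and 344 RPKM there and 1267, 1341 and 679 RPKM in the knockouts. The 6 epithelial markers summed to 3843 to 6683 RPKM in the controls and 5317 to 5563 RPKM in the knockouts. The 5 smooth muscle markers summed to 381 to 594 and 368 to 578.5 RPKM in the same order. Whether these came from the muscle layer that had been taken off or from other cells was not tested.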

How the data were processed

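Total RNA of 6 libraries was measured, 3 labelled Sox2 WT and 3 labelled Sox2 KO. The authors deposited RPKM for 39179 Ensembl genes, made with CASAVA 1.7 and STAR on mm10 per the submitters' processing notes. Counting tool, annotation, filters and strandedness: not given in the sources used here. Coordinates came from GENCODE M21 (GRCm38, which is mm10), in which 37607 identifiers matched. Reads were recovered as whole multiples (tolerance 0.001 reads) for 23538 of 23538 genes above 0. They came to 113.9% to 135.1% of the denominators of the deposited RPKM, and those of Oasl2, Mx2, Gbp6, Iigp1, Irf9, Usp18, Ifi44 and Cxcl10 shared a divisor of 2, so they are upper values. Counting error alone is large at a few reads.

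Log2(RPKM + 0.5) was tested by limma (version 3.58.1, R 4.3.3, variance trend) over 14045 genes with a mean of at least 0.5 RPKM, 1 row per symbol, with Benjamini-Hochberg adjustment over all of them and a threshold of 0.05. The fit was tested on simulated data. The members and lists were chosen with earlier results of these data known, so no p was adjusted over a list. Alternatives were other pseudocounts, filters and scalings, voom on recovered reads, a replicate block, sex as a covariate, male libraries alone and each library left out. After values were seen, counts by library were also made without each library, and with the filter set on the other 5 libraries. All members are named, with values per library at a mean of at least 1 RPKM. Of the pathway list the receptors and the 3 most abundant tested genes of each role are named, and genes at least 2 times each other library where the type I targets peak. Some genes that this rule takes in are not reported here.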

Additional observations from a re-analysis of the deposited data

How the results depend on the processing

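Over 16 alternatives, 573 fold changes of tested members were computed. The direction was kept and no call was made in 555, and the direction reversed in 18, in 5 members. No alternative called a member, and the lowest adjusted p was 0.356. Leaving out each library in turn gave medians of 0.21 to 0.41 for all members, 0.22 to 0.63 for type I and 0.17 to 0.31 for gamma targets. Over all genes, limma called 0 in male libraries alone (580 with an unadjusted p under 0.05), 1 with a replicate block, 1 with sex as a covariate, 7 with voom (2 higher, 5 lower) and 1 to 8 without each library, against 4. The split of calls was 1 higher to 2 lower with median-of-ratios scaling, and likewise with quantile normalization, against 2 to 2. The correlations of same-numbered libraries were 0.009, 0.097 and -0.074, so the replicate numbers were not taken as pairs, and the block called 0 members. Sox2 was at -3.82 in male libraries alone (adjusted p = 0.15), with 1 Sox2 WT library assumed to vary like the others.

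In male libraries alone and with sex as a covariate alike, the log2 fold changes were -0.09 for Gbp7, -0.004 for Ddx58, -0.20 for Cmpk2 and -0.14 for Trim30a. Trim30a was also at -0.01 under median-of-ratios scaling, -0.01 with a pseudocount of 0.1, -0.03 after quantile normalization and -0.02 with voom. Without each library in turn, Psmb9 ran from -0.23 to 0.09, Cmpk2 from -0.02 to 0.40, Trim30a from -0.18 to 0.11 and Gbp7 from -0.001 to 0.30. The cause of these reversals was not tested. The 6 members with a mean under 0.5 RPKM were not tested with that filter.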
